A study of Homo sapiens with 8 samples.

Results

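The genes of the AP-1 transcription factors were followed here at the level of chromatin. The 10 genes were FOS, FOSB, FOSL1 and FOSL2 of the FOS family, JUN, JUNB and JUND of the JUN family, and ATF3, BATF and BATF3. Their accessible regions were all regions that overlapped the annotated gene or 50 kb on either side of it, which gave 166 of the 126658 regions found in the study. The windows of ATF3 and BATF3 lie side by side and shared 5 regions. The rule for the regions used position only, whereas the genes were picked with earlier results of these data known.

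The study asked how the cytokine TGFβ1 reshapes chromatin in MCF10A, an immortalised, non-tumorigenic human mammary epithelial cell line, while the cells undergo an epithelial-mesenchymal transition (EMT). Wild-type cells received solvent (0.1% BSA in PBS) or 5 ng/ml TGFβ1 for 6, 24 or 72 h, in a medium that in all groups contained EGF, hydrocortisone, cholera toxin and insulin. According to the labels the solvent cells stand for time 0, but one legend in the paper has them in solvent for 72 h. ATAC-seq, which reads open chromatin from where a transposase can insert, was run on 8 libraries, 2 per condition. The authors called peaks on both replicates of a condition together, so the data are 4 peak lists with 1 value per condition, no difference below has a replicate error, and no test was possible.

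AP-1 is a dimer of basic leucine zipper proteins. JUN proteins pair with each other or with FOS and ATF proteins, whereas FOS proteins need a partner, and most pairs bind the palindrome-like site TGAGTCA, which reads TGACTCA on the other strand. FOS, FOSB and JUNB are textbook immediate-early genes whose transcription follows growth factors and kinases within minutes, and in TGFβ signalling AP-1 acts beside the SMAD proteins at many shared target genes.

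The height of a region is given as the AUC, the area under the significance curve of its peaks above the threshold of the peak caller. The AUC grows with depth and peak width and has no unit. It was divided, list by list, by the median ratio to solvent of all regions within 3 kb of a transcription start site (TSS). This ratio came to 1.36 for the 6 h list, 1.30 for 24 h and 1.19 for 72 h. All AUC values below are scaled in this way and all log2 ratios are between scaled AUC values of a TGFβ1 list and the solvent list. A region was called up or down at 1.5-fold, and gained or lost where only 1 of the 2 lists had a peak. Distal means more than 3 kb from any TSS. Positions are on GRCh38, and distances run from the gene start along the gene's strand to the summit of the strongest peak.

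Most of the AP-1 regions were open in every condition, and among the 10 loci FOS had the lowest and BATF3 the highest ratio to solvent after TGFβ1. A peak in all 4 lists was present in 125 of the 166 regions (75.3%, against 62.6% of all regions). The summed AUC of the FOS locus went from 46078 (solvent) to 43193 (6 h), 35035 (24 h) and 31993 (72 h). Around BATF3 the sum went from 17805 to 20878, 23050 and 24569 in the same order. The other 8 loci ended between 0.86 and 1.11 times their solvent value.

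Gained regions were a smaller share of the AP-1 regions than of all regions. At 6 h 23 of 155 regions were gained (14.8%, against 22.9% of all regions), at 24 h 28 of 160 (17.5%, against 29.8%) and at 72 h 24 of 156 (15.4%, against 29.3%). Losses numbered 1 at 6 h (0.645%, against 0.551% of all regions), 5 at 24 h (3.12%, against 1.31%) and 6 at 72 h (3.85%, against 2.43%). The solvent list was the shortest, with 86209 peaks against 107656 to 118433. With every list cut to its 86209 peaks of largest AUC the members had 8 gains and 14 losses at 72 h, or 5.71% and 10.0%, against 13.8% and 11.6% of all regions.

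Among regions present in both lists, 14 of 131 were up at 6 h (10.7%, against 11.7% of all regions), 17 of 127 at 24 h (13.4%, against 20.3%) and 18 of 126 at 72 h (14.3%, against 22.9%). Regions down numbered 1 at 6 h (0.763%, against 1.4%), 5 at 24 h (3.94%, against 3.22%) and 10 at 72 h (7.94%, against 3.9%). The 8 of these 10 that were distal made up 14.5% of the 55 distal regions compared, where 4.0% of all distal regions were down. The median log2 ratio at 72 h was 0.14 in distal member regions (0.27 in all distal regions; -0.0013 for members when scaled by all shared regions) and -0.13 in proximal ones (0.00 by construction in all proximal regions).

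The height of a region in solvent moved with its response in the whole data set. Of all shared regions with a solvent AUC of 200 to 500, 43.3% were up at 72 h, whereas of those at 2000 or more 1.53% were up and 1.76% down. The member regions held 52 of this highest class. None of them was up at 72 h, 3 were down and 1 was lost. In that class the median log2 ratio was -0.14 for members and -0.07 for all regions.

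**Figure D1:**
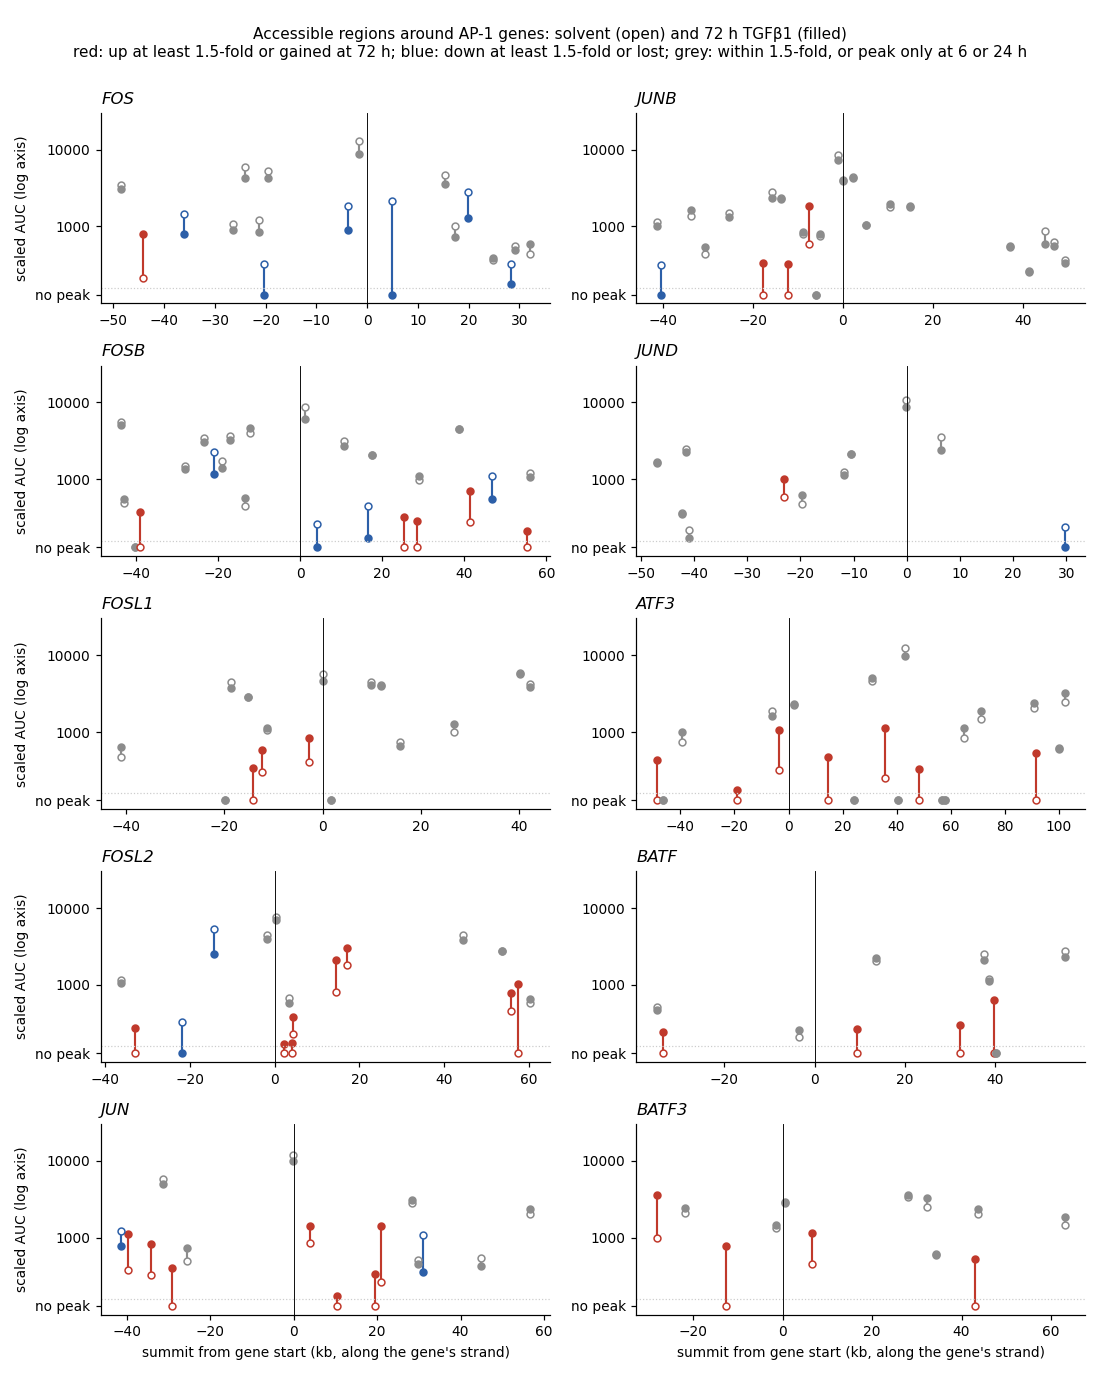
Scaled AUC (log axis) of every region of the 10 genes against the distance of its summit from the gene start in kb, in solvent (open circles) and at 72 h of TGFβ1 (filled circles), with regions lacking a peak drawn at the bottom. The FOS panel holds 6 regions down or lost (blue) and 1 up (red), whereas the ATF3, BATF and BATF3 panels hold no blue region. Over all regions of the study 3.9% were down and 2.43% lost at 72 h, so few blue regions would fall in a small panel.

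The sequences at the summits of 3 kinds of region are shown first, so that the letters under each change can be read: the largest rise at 72 h of each of the 9 genes where it passed 1.5-fold, the 3 gained regions of largest AUC at 72 h, and the largest fall of each of the 4 genes where it passed 1.5-fold. Each runs over 201 bases of the plus strand of GRCh38, with AP-1 sites in capitals. Of the 9 rises 3 (FOS, JUND and ATF3) and of the 3 gains 2 (FOSL2 and BATF) held an AP-1 site within 100 bases of the summit.
FOS 44.2 kb upstream, chr14:75234568-75234768: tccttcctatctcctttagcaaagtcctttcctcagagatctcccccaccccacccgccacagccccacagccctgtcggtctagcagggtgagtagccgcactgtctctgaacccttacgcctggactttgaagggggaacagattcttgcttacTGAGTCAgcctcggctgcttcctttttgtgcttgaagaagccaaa
JUND 23.1 kb upstream, chr19:18304600-18304800: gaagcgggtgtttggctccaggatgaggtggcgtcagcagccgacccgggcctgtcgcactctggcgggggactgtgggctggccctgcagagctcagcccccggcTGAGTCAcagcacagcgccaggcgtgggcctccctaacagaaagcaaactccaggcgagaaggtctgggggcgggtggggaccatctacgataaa
ATF3 35.7 kb downstream, chr1:212600962-212601162: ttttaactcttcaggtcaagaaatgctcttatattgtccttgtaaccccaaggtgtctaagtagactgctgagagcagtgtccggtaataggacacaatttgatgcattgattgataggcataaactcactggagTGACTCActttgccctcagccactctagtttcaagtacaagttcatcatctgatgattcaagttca
FOSL2 57.5 kb downstream, chr2:28449864-28450064: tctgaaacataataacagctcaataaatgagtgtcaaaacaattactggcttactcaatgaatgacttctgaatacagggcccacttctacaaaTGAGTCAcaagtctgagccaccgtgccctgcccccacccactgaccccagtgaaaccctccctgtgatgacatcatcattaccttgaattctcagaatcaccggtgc
BATF 39.8 kb downstream, chr14:75562170-75562370: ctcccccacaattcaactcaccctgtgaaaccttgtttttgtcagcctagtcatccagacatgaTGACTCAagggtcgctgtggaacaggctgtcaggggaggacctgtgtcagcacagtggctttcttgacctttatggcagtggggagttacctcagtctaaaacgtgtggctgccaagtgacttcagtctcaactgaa

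The rises of the other 6 genes and the gain at BATF3, 12.7 kb upstream, held no TGAGTCA or TGACTCA there.
FOSB 41.5 kb downstream, chr19:45509365-45509565: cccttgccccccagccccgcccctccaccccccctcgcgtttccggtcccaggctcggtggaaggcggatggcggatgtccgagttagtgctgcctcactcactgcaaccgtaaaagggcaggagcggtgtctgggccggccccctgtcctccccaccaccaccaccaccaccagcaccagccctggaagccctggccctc
FOSL1 2.7 kb upstream, chr11:65903220-65903420: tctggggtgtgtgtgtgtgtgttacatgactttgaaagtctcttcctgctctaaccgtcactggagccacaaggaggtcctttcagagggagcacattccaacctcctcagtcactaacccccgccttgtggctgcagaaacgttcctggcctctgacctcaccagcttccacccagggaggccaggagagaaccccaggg
FOSL2 14.5 kb downstream, chr2:28406809-28407009: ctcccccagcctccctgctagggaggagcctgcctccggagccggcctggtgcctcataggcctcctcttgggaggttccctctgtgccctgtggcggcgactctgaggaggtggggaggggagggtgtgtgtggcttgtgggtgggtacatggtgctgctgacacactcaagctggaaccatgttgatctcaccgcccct
JUN 21.0 kb downstream, chr1:58762900-58763100: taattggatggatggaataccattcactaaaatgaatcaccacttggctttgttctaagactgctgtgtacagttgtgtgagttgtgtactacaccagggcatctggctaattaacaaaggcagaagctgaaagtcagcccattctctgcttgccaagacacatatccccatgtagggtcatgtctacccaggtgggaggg
JUNB 7.6 kb upstream, chr19:12783749-12783949: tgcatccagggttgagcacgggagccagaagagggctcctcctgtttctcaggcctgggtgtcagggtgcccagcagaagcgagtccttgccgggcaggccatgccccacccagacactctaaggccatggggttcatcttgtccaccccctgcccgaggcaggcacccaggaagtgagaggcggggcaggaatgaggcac
BATF3 28.2 kb upstream, chr1:212727890-212728090: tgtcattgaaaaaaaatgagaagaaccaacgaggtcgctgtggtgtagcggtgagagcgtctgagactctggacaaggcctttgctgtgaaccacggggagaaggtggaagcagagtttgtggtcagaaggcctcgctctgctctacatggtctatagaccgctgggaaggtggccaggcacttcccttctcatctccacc
BATF3 12.7 kb upstream, chr1:212712437-212712637: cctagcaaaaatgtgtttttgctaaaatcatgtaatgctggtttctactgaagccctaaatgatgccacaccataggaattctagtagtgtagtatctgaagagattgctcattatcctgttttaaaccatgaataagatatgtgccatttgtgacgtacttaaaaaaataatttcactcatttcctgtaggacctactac

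The 4 falls held no AP-1 site in these windows either.
FOS 19.9 kb downstream, chr14:75298675-75298875: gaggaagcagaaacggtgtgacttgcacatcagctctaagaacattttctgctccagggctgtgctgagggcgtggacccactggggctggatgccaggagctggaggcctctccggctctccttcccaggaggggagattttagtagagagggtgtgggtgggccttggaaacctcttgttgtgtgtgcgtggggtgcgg
FOSB 16.5 kb downstream, chr19:45484441-45484641: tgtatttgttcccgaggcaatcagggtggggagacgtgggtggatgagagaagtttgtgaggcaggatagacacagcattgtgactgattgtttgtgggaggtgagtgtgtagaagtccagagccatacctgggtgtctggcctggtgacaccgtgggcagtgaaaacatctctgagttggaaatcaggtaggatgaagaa
JUN 30.9 kb downstream, chr1:58753076-58753276: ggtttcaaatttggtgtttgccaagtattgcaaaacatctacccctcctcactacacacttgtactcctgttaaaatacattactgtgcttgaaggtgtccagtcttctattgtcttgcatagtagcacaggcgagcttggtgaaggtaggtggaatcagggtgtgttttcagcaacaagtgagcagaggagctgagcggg
FOSL2 14.3 kb upstream, chr2:28378068-28378268: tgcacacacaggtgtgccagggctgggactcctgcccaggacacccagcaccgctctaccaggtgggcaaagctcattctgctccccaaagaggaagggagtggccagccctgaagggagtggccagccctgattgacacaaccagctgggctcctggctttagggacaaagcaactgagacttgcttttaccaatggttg

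FOS, the founding member of the family, lies on chromosome 14 (75278826-75282230, plus strand) and had 18 regions. The region over its start (chr14:75276843-75282034, exonic) held 13019 with solvent and 12072, 9906 and 8801 with TGFβ1, so that solvent was the highest (before scaling 6 h was, with a log2 ratio of 0.33). Its log2 ratio of -0.56 at 72 h stood at the 1.42nd percentile of the promoter regions of all coding genes, just inside the 1.5-fold limit of 0.58. Per base of peak the log2 ratio was -0.27. The peaks there covered 4876 bases in solvent and 4187 at 72 h, and the AUC per base before scaling was 2.67 and 2.49.

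The surroundings of FOS moved in the same direction. Of 16 regions with a peak in both lists at 72 h, 13 had a log2 ratio below 0, and 4 of them were down and 1 region was up. Only FOS among the 10 genes had no region gained at any time together with 2 regions lost, and without the promoter region the log2 ratio of the locus at 72 h was -0.51. Log2 ratios of the whole locus were -0.09, -0.40 and -0.53 in the 6, 24 and 72 h lists. At 72 h it stood at the 0.113th percentile of the 16301 coding loci with 5 or more regions, whose median was 0.11.

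Single regions around FOS followed different courses. The intergenic region 19.9 kb downstream (chr14:75298435-75299363), whose sequence is given above, had an AUC of 2802 with solvent and of 1870, 1308 and 1303 with TGFβ1 (6, 24 and 72 h), so that most of its fall was in place by 24 h. The region 3.8 kb upstream fell later, from 1834 in solvent to 1628, 1233 and 909. Its peaks covered 624 bases in solvent and 326 at 72 h. The AUC per base before scaling was 2.94 and 3.31, so that the peak was narrower but not lower per base. Just behind the gene, 4.9 kb from its start (chr14:75282601-75284458), a broad peak of 2158 in solvent and 2173 at 6 h was absent from the 24 h and 72 h lists.

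The peak missing there was a flat one. Its AUC was 1.17 per base in solvent, before scaling, against a median of 2.04 over the solvent list. In the other direction, the intergenic region 44.2 kb upstream (chr14:75234315-75234840) had an AUC of 214 in solvent and 526, 722 and 799 after TGFβ1. It was the only up region of the locus at 72 h and the only one of its 11 distal regions with an AP-1 site near the summit.

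FOSB, a close relative of FOS with an immediate-early promoter of its own, lies on chromosome 19 (45467995-45475179, plus strand). Its start region was 8722, 8248, 6731 and 6028, a log2 ratio of -0.53 at 72 h (the 1.78th percentile of promoter regions). The FOS and FOSB promoters thus had near-equal ratios at 24 h (-0.39 and -0.37) and at 72 h. Per base the FOSB ratio was -0.24.

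The rest of the FOSB window is crowded with the genes ERCC1, RTN2, PPM1N and VASP, and 20 of its 24 regions lay within 3 kb of a TSS. The locus sum had a log2 ratio of -0.15 at 72 h, which was 0.09 without scaling. Of 23 regions 4 were gained (17.4%, against 29.3% of all regions) and 1 was lost (4.35%, against 2.43%). Of 18 shared regions 1 was up (5.56%, against 22.9%) and 3 were down (16.7%, against 3.9%). In an intron of VASP, an actin-binding protein gene, a region 41.5 kb from the FOSB start had 281 in solvent and 728, 865 and 711 after TGFβ1. Its peaks covered 335 bases in solvent and 859 at 72 h, with an AUC per base before scaling of 0.84 and 0.98. Another in VASP, 46.7 kb away, had 1096, 1010, 764 and 555. Regions up and down at 72 h thus lay within 1 neighbouring gene. The lowest ratio of the locus was 16.5 kb downstream of FOSB (chr19:45484331-45484790, intergenic), where 453, 528 and 522 were followed by 174 at 72 h, a log2 ratio of -1.38.

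Further FOSB regions lay upstream of the gene. The strongest distal region, 12.1 kb upstream in an intron of the DNA repair gene ERCC1, had 3978, 4246, 4310 and 4584 and held an AP-1 site near its summit. The strongest gained region, 39.1 kb upstream in ERCC1, had no peak in solvent and 246, 281 and 372 after TGFβ1. Also in ERCC1, 20.9 kb upstream, a region was down at 72 h, with 2277, 1985, 1692 and 1165. Its peaks covered 871 bases in solvent and 466 at 72 h, with an AUC per base before scaling of 2.61 and 2.97.

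FOSL1, which encodes FRA-1, lies on chromosome 11 (65892049-65900573, minus strand) and 12 of its 16 regions lay within 3 kb of a TSS. Its start region was 5643, 5184, 4984 and 4594, a log2 ratio of -0.30 at 72 h. The region with the largest rise was close to the gene, 2.7 kb upstream (chr11:65902973-65903629), with 408, 648, 750 and 832. It was already past 1.5-fold at 6 h, with a log2 ratio of 0.67, and reached 1.03 at 72 h. Its peaks covered 266 bases in solvent, 643 at 6 h and 462 at 72 h. The AUC per base before scaling was 1.53, 1.37 and 2.14 in the same lists. The strongest distal region, 11.3 kb upstream, had 1057, 1029, 884 and 1119, with no clear order.

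Slightly further out, 14.1 kb upstream, a FOSL1 region absent in solvent had 336, 403 and 344. None of the 13 shared regions of FOSL1 was down at any time and none was lost. At 72 h 3.9% of all regions were down and 2.43% lost, shares at which few calls would fall among 13 regions.

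FOSL2, which encodes FRA-2, lies on chromosome 2 (28392448-28417317, plus strand) and showed gains and falls side by side. Its start region held 7594, 7358, 7170 and 7055, the steadiest of the 4 FOS family promoters. The first large change was inside the gene, in an intron 14.5 kb from the start (chr2:28406492-28407130), with 807, 1254, 2005 and 2113. Another intronic region at 17.0 kb had 1794, 2095, 2508 and 2981, with an AP-1 site near its summit that the first lacked.

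In front of FOSL2 the change was the reverse. The intergenic region 14.3 kb upstream (chr2:28377177-28378811) was the strongest distal one of the locus in solvent and had 5287, 4214, 3203 and 2522, lower in each list than in the one before. Behind the gene, 57.5 kb from its start (chr2:28449494-28450413) and touching an exon of the gene ENSG00000227938, a region without a peak in solvent had 945, 1182 and 1027. This was the gained region of the largest AUC at 72 h in the set. The distal region of largest AUC at 72 h, 44.4 kb downstream, had 4416, 4367, 4111 and 3854. The locus sum of FOSL2 hardly moved (log2 ratio -0.01 at 72 h). Of its 12 shared regions 4 were up (33.3%, against 22.9% of all regions) and 1 was down (8.33%, against 3.9%). Of 17 regions 4 were gained (23.5%, against 29.3%) and 1 was lost (5.88%, against 2.43%). These counts are too small to be told apart from the shares over all regions.

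**Figure D2:**
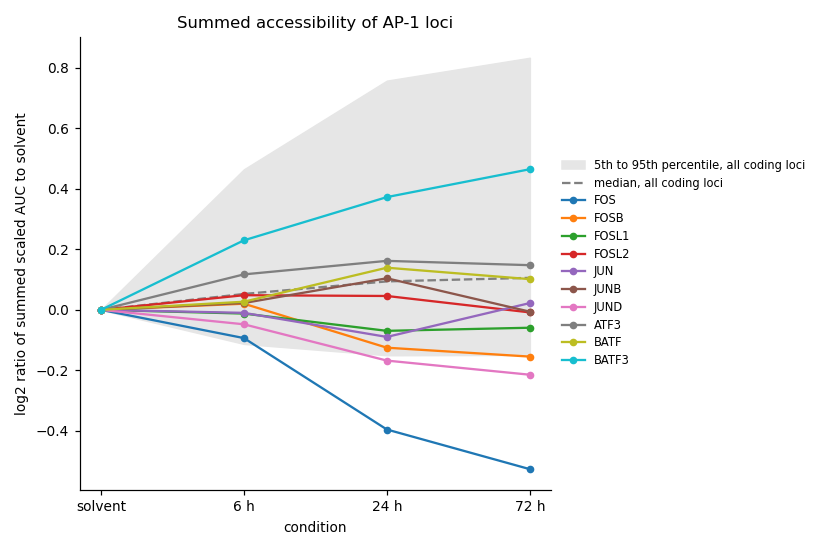
Log2 ratio of the summed scaled AUC of each locus to solvent at 6, 24 and 72 h, with the median (dashed) and the 5th to 95th percentiles (grey) of 16301 coding loci. FOS and JUND lie below the grey band at 24 and 72 h, FOS reaching -0.53 and JUND -0.21, FOSB is at its lower edge at 72 h (-0.15), and BATF3 is the highest of the 10 with 0.46.

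JUN, the partner shared by most AP-1 dimers, lies on chromosome 1 (58776845-58784048, minus strand) and 13 of its 16 regions were distal. The region over its start (chr1:58781567-58786109) had 12004, 10600, 9838 and 9913, a log2 ratio of -0.28 at 72 h. At 6 h the log2 ratio was -0.18, which was 0.26 without scaling and 0.07 per base of peak, so that its direction turned. At 72 h it was -0.03 without scaling and -0.08 per base. The summed AUC of the locus ended where it began, with a log2 ratio of 0.02 at 72 h.

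Single regions of JUN departed much further from solvent than the sum. The region 21.0 kb downstream of the start (chr1:58762837-58763568), in an intron of the non-coding gene ENSG00000283445, had 270 in solvent and 646, 897 and 1435 after TGFβ1. Its log2 ratio of 2.41 at 72 h was the largest of any member region, and each list was higher than the one before. Peak width rose from 209 bases in solvent to 722 at 72 h, and the AUC per base before scaling from 1.29 to 2.36. Further on, at 30.9 kb (chr1:58752680-58753495), a region had 1089, 780, 371 and 356, and its log2 ratio of -1.61 was the lowest of any member region. Between them, at 28.4 kb, the strongest distal region of JUN had 2807, 2813, 2990 and 3141.

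On the other side of JUN, inside the long non-coding gene LINC01135, a region 39.6 kb upstream had 383, 641, 729 and 1131, while its neighbour 41.2 kb upstream had 1216, 986, 762 and 793. The former held an AP-1 site near its summit and the latter did not. The strongest gained region, 29.1 kb upstream, had no peak in solvent and then 301, 300 and 404.

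JUNB, one of the immediate-early genes named above, is on chromosome 19 (12791486-12793315, plus strand) within the annotated span of HOOK2. All 24 of its regions were within 3 kb of some TSS. The region over its start had 3960, 3409, 3814 and 3931, lowest at 6 h (log2 ratio -0.22, the 4.93rd percentile of promoter regions) and at -0.01 at 72 h, but without scaling it was lowest in solvent, with log2 ratios of 0.23 and 0.24. The larger region in front of it, 1.2 kb upstream, had 8445, 8255, 8133 and 7310.

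The largest rise at JUNB was 7.6 kb upstream (chr19:12783702-12785285), where a region over an exon of ENSG00000267212 had 595 in solvent and 2156, 2783 and 1818 after TGFβ1. Its log2 ratios were 1.86, 2.23 and 1.61, so the 24 h list was the highest and all 3 TGFβ1 lists were past 1.5-fold. Its peaks covered 379 bases in solvent and 1434, 1584 and 1540 after TGFβ1. The AUC per base before scaling was 1.57 in solvent, 2.04 at 6 h and 2.29 at 24 h. At 72 h it was below the solvent value, so that the peak there was wider but lower per base. A region 5.0 kb upstream had 741, 994, 1081 and 798, also highest at 24 h but within 1.5-fold. The strongest gained region at 72 h, 17.7 kb upstream, had no peak in solvent or at 6 h and then 261 and 332. The lowest ratio was 44.9 kb downstream in an intron of MAST1, with 875, 756, 743 and 586 (log2 ratio -0.58, within 1.5-fold). At the whole locus 1 of 20 shared regions was up at 72 h (5.0%, against 22.9% of all regions) and none was down (3.9% of all regions).

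JUND, the least inducible of the JUN genes in textbook accounts, lies on chromosome 19 (18279694-18281622, minus strand). Its start region had 10779, 9562, 8457 and 8703, a log2 ratio of -0.31 at 72 h, and per base of peak this became 0.06. The locus sum stood at -0.21 (the 2.11th percentile of coding loci), and at 0.03 without scaling. The region of the largest rise, 23.1 kb upstream (chr19:18304426-18305215), had 581, 980, 1105 and 1002, up at every time. Its peaks covered 220 bases in solvent and 757, 759 and 737 after TGFβ1. The AUC per base before scaling was 2.64 and then 1.76, 1.89 and 1.61, so that the peaks were wider but lower per base.

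The lowest ratio at JUND was over an exon of IQCN, 6.5 kb downstream, with 3551, 3481, 2633 and 2429 (log2 ratio -0.55, within 1.5-fold). The strongest distal region, 10.4 kb upstream, had 2116, 2511, 2310 and 2146, highest at 6 h. None of the 11 regions of JUND was gained at any time (29.3% of all regions at 72 h), and 1 was lost at 72 h (9.09%, against 2.43%).

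**Figure D3:**
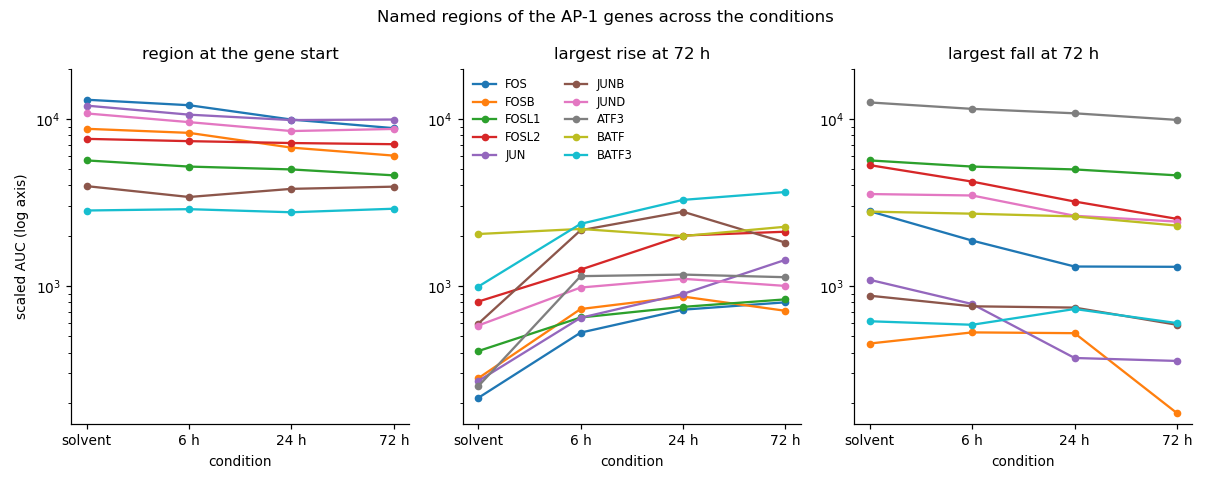
Scaled AUC (log axis) in solvent and at 6, 24 and 72 h of the region at each gene start (left; 8 genes), of the region with the largest rise at 72 h (middle) and of that with the largest fall (right). With this scaling the start regions stay within 1.5-fold of their solvent values, which run from 2831 (BATF3) to 13019 (FOS) (scaled by all shared regions, FOS and FOSB pass it at 72 h with log2 ratios of -0.71 and -0.68), whereas in the middle panel ATF3 is level from 6 h, JUNB is highest at 24 h and JUN is highest at 72 h.

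The start regions of the 8 genes that had one can be set beside those of all coding genes. At 1.5-fold 0 of the 8 member promoter regions were up or down at 6, 24 or 72 h, but when scaled by all shared regions FOS (-0.71) and FOSB (-0.68) were down at 72 h. Among all coding genes 2.35%, 3.4% and 3.02% of promoter regions were up at these times, and 0.304%, 0.895% and 1.32% were down, shares at which few calls would fall among 8 regions. At 72 h 7 of the 8 member promoters had log2 ratios below 0, with FOS and FOSB lowest, where the median of all coding promoters was -0.08. Without scaling 5 of the 8 were below 0.

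ATF3, a stress-inducible gene and a known SMAD3 target, lies on chromosome 1 (212565334-212620777, plus strand). The annotated gene start had no peak in any list. The strongest region of the locus lay 43.1 kb inside the gene (chr1:212606551-212610067), over the start of shorter transcripts, and had 12541, 11477, 10799 and 9863. In the intron in front of it, 35.7 kb from the gene start (chr1:212600589-212601436), a region had 251 in solvent and 1146, 1171 and 1129 after TGFβ1. It reached its level by 6 h, with log2 ratios of 2.19, 2.22 and 2.17.

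At ATF3 7 of the 19 regions open in solvent or at 6 h were gained at 6 h (36.8%, Wilson interval 19.1 to 59.0, which includes the 22.9% of all regions). At 72 h it was 5 of 17 (29.4%), a share like the 29.3% of all regions. None of its 12 shared regions was down at any time and none was lost, where 3.9% of all regions were down and 2.43% lost at 72 h. Close to the gene start, 3.7 kb upstream, a region had 323, 504, 913 and 1064, higher in each list than in the one before. The strongest distal region, in an intron 30.9 kb from the start, had 4638, 4992, 4929 and 5124.

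The strongest gain at ATF3 was a region in LINC02773 that its window shares with that of BATF3, 91.5 kb from the ATF3 start, with no peak in solvent and then 272, 438 and 538. The log2 ratio of the locus was 0.15 at 72 h, near the median of 0.11 for coding loci.

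BATF, best known from lymphocytes, lies on chromosome 14 (75522455-75546993, plus strand). Its gene start had no peak in any list, and its strongest distal region at 72 h was intronic, 13.6 kb from the start, with 2047, 2196, 1990 and 2263. Gains made up 4 of the 10 regions open in solvent or at 72 h (40.0%, Wilson interval 16.8 to 68.7, which includes the 29.3% of all regions). The strongest of them, 39.8 kb downstream (chr14:75562072-75562463), had no peak in solvent and 327, 706 and 643 after TGFβ1, and it held an AP-1 site near its summit. None of the 6 shared regions of BATF was up or down at any time, and none was lost. At 72 h 22.9% of all regions were up, 3.9% down and 2.43% lost, shares at which few calls would fall among 6 regions. The lowest ratio was -0.28 at 72 h over the transporter gene FLVCR2.

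BATF3, known for its part in the making of certain dendritic cells, lies on chromosome 1 (212686417-212699840, minus strand). Its start region was open at the same level in each list, with 2831, 2883, 2762 and 2901. The up regions of the locus lay away from the start. The region 28.2 kb upstream (chr1:212726962-212728211), which touches an exon of the kinetochore gene NSL1, had 992, 2355, 3277 and 3652, with log2 ratios of 1.25, 1.72 and 1.88. Inside the gene, 6.6 kb from the start, an intronic region had 459, 761, 1049 and 1157. Its peaks covered 220 bases in solvent and 641 at 72 h, and the AUC per base before scaling was 2.09 and 2.14.

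The strongest gained region of BATF3, 12.7 kb upstream, had no peak in solvent or at 6 h, 191 at 24 h and 782 at 72 h. Of 10 regions shared with solvent at 72 h, 9 had log2 ratios above 0 (90.0%, against 63.9% of all shared regions). Of these 10 regions 2 were up (20.0%, against 22.9% of all regions) and none was down (3.9% of all regions). Of 12 regions 2 were gained (16.7%, against 29.3%) and none was lost (2.43% of all regions). The log2 ratio of the locus, 0.46, stood at the 85.8th percentile of coding loci. It was 0.22 with a window of 100 kb and 0.25 with one of 10 kb.

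**Figure D4:**
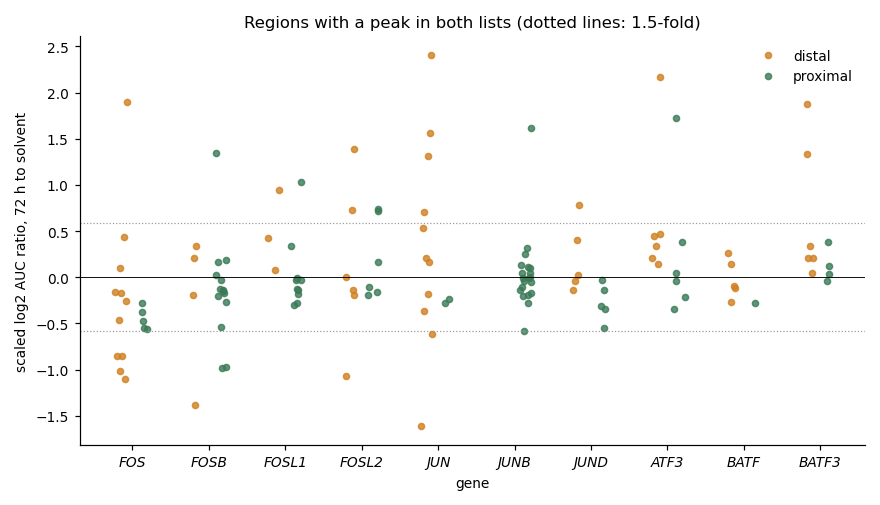
Scaled log2 AUC ratio of 72 h of TGFβ1 to solvent for each region with a peak in both lists, by gene, with distal regions in orange and proximal regions in green and dotted lines at 1.5-fold. Ratios run from -1.61 to 2.41, both extremes being distal regions of JUN, and 13 of the 16 regions of FOS lie below 0. Of all shared regions of the study 63.9% were above 0.

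The AP-1 site itself was searched as TGAGTCA or TGACTCA within 100 bases of each summit, on both strands. It was found in 19 of the 71 distal member regions (26.8%, 95% Wilson interval 17.9 to 38.1, counting error only), against 37.5% of all distal regions. Of the 12 distal regions up at 72 h 6 held it (47.4% of all such regions in the study), of the 12 gained 1 (40.8%), and of the 8 that were down none (14.8%), a count of 0 for which the Wilson interval reaches 32.4%. These are the letters only, and no binding was measured.

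By gene, the site lay in 1 of 11 distal regions of FOS, 4 of 13 of JUN, 3 of 11 of ATF3, 3 of 10 of BATF, 3 of 8 of BATF3, 2 of 8 of FOSL2 and 2 of 5 of JUND. FOSB and FOSL1 had 1 of 4 each, and JUNB had no distal region. Over the whole length of the regions the share rose to 38.0%, against 43.1% of all distal regions.

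Promoter sequences were taken from RefSeq (GRCh38.p14, 250 bases before to 50 after the start), which listed 9 entries for 8 of the 10 genes. The AP-1 site occurred in that of FOSL2 (4.92% of all 34961 promoters held it) and the cAMP-response element TGACGTCA in that of JUND (1.85%). The related site TGACATCA, known from the JUN promoter as a place where AP-1 acts on its own gene, occurred in those of JUN and ATF3 (2.61%). The SMAD palindrome GTCTAGAC (0.197% of all promoters) and the CArG box of serum response factor (1.3%) occurred in none of the 9. Sites more than 250 bases before a start lie outside these sequences. At shares this low their absence from 9 entries says little, and it does not show that a gene lacks the site. The promoters of JUN and JUND, which lay under a peak, are shown with TGACATCA (JUN) or TGACGTCA (JUND) in capitals.
JUN promoter, minus strand, chr1:58783998-58784297: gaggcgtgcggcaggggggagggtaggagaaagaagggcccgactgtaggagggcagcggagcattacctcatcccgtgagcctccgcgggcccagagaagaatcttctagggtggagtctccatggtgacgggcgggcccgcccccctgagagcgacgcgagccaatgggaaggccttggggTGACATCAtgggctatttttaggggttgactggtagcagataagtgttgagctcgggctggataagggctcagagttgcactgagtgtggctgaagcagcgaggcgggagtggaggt
JUND promoter, minus strand, chr19:18281573-18281872: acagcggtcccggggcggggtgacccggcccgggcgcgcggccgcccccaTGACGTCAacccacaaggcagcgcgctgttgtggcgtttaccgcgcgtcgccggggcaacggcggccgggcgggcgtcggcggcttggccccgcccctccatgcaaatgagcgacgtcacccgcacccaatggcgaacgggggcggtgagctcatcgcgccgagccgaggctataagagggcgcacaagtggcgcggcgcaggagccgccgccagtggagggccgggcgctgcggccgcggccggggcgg

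At the starts of JUN, JUND and FOSL2 the regions stayed within 1.5-fold of solvent in every list, as given above. The ETS letters CCGGAA (17.3% of all promoters) lay in the FOSB promoter and the RUNX letters TGTGGTT (4.28%) in that of BATF. The TEAD letters ACATTCC (3.47%) lay in none of the 9.

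Other genes of the pathway were followed in the same way, from 3 lists. The median log2 ratio of a locus at 72 h was -0.01 over the 10 AP-1 genes and 0.05 over 14 genes for other leucine zipper partners, of which BACH2, BACH1 and NFE2L2 had the most gained regions (10 of 49, 9 of 33 and 6 of 26) and also the most regions. It was 0.08 over 14 genes for kinases and factors acting on AP-1 genes, with 16 gained of 41 regions at MRTFA, a cofactor of serum response factor, and 3 each at MAP2K4 and MAPK8 of the JNK pathway and at MRTFB, a relative of MRTFA. Gained regions were 29.3% of all regions at 72 h. At 72 h 36 of 182 shared regions of the partner genes were up (19.8%) and 6 down (3.3%). Of 150 shared regions of the kinase and factor genes 27 were up (18.0%) and 2 down (1.33%). Of all regions 22.9% were up and 3.9% down. No promoter region on either list was up or down at any time, where at 72 h 3.02% of coding promoters were up and 1.32% down.

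Known target genes of AP-1 had a higher median ratio, though they were not uniform. Over 12 of them the median log2 ratio of the locus at 72 h was 0.71, and 0.56 when MMP1, MMP3 and MMP10, which lie side by side and share regions, were taken as 1 locus. Only CCND1 was below 0, at -0.17, and PLAUR, at 0.16, lay near the median of 0.11 for coding loci. In the 12 loci 35 of 109 shared regions were up (32.1%, against 22.9% of all regions) and 2 were down (1.83%, against 3.9%). Of 9 promoter regions 2 were up at each time and none was down. Those of MMP3 and MMP9 had no peak in solvent and could not be called. Among all coding promoters 2.35%, 3.4% and 3.02% were up and 0.304%, 0.895% and 1.32% down. The collagenase gene MMP1 had 6 of 16 regions gained and a locus ratio of 0.95. The promoter region of MMP10, another matrix metalloproteinase, had deposited AUC values of 686, 1576, 1944 and 1811, with log2 ratios of 0.76, 1.12 and 1.15. The genes that encode AP-1 and the genes that AP-1 is known to act on thus differed in their medians, a difference for which no test was possible.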

How the data were processed

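ATAC-seq had been carried out on 8 libraries of MCF10A cells, 2 for each of 4 conditions. Per the labels and the study's methods, the authors used Trimmomatic 0.38 for trimming, Bowtie2 2.4.5 for mapping (GRCh38), Picard for duplicates, SAMtools 1.4.1 for filtering and Genrich 0.5 for peaks, with both replicates of a condition pooled. The deposited signal value is the AUC of a peak, with a minimum of 200. The deposited −log10 q value and the capped score of a peak were not used in any result, and its summit was. Which list belongs to which condition is known only from how the authors named it. Without read totals in the lists the depth is unknown, and intervals for shares (95% Wilson) cover counting error only.

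Peaks sharing 1 bp or more across lists were merged, and AUC values were summed per region and list and scaled by the median log2 ratio to solvent at regions within 3 kb of a GENCODE 44 TSS (0.44, 0.38 and 0.25 for the 6, 24 and 72 h lists). With 1 list per condition no test was run. The gene members, the lists of other genes and the alternatives were chosen with earlier results of these data known. Named were, for each member, the region over the gene start (or within 1 kb), the strongest distal region at 72 h, the strongest gained region and the largest rise and fall at 72 h among shared regions with an AUC of at least 400 in either list, and from each pathway list the 3 genes with the most gained regions and any gene with a promoter past 1.5-fold. Other regions described near these were chosen after their values were seen. Of the target list 1 gene is not reported here. Markers were checked: 7 of 7 epithelial genes had a peak over a TSS in every list and 0 of 6 genes of blood, endothelial and liver cells had one. At the window edge, the 12 regions in the last 6 kb inside had a median log2 ratio at 72 h of -0.05 and the 16 in the 6 kb outside 0.01. The procedures were tested on simulated lists. Versions were 2.3.3 of pandas, 2.4.6 of numpy, 1.17.1 of scipy, 3.10.9 of matplotlib and 3.11.15 of Python.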

Additional observations from a re-analysis of the deposited data

How the results depend on the processing

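No paired analysis was possible because the authors called each list on both replicates together, and for the same reason no replicate could be left out. Of 12 shares and medians that scaling could change 9 moved without it. In equal lists of 86209 peaks the gained shares at 6, 24 and 72 h were 5.71%, 4.35% and 5.71% and the lost shares 5.71%, 7.97% and 10.0%. With a minimum AUC of 400 the lost shares were 0%, 0.775% and 1.52%, the share down at 6 h was 0%, and the shares up at 24 and 72 h were 7.27% and 8.26%. Without scaling, 24.4% (6 h) and 33.1% (24 h) were up and 0% down at 6 h, and the medians were 0.46, 0.47 and 0.39 in distal and 0.41, 0.28 and 0.12 in proximal regions. Scaled by all shared regions, the distal medians at 24 and 72 h were -0.029 and -0.0013 and the proximal ones -0.22 and -0.27. Per base of peak, 2.29%, 5.51% and 7.14% were up, and the distal median at 72 h was 0.025. At 2-fold, 4.58% and 7.09% were up at 6 and 24 h, and 0%, 1.57% and 3.97% were down. Within 10 kb of the genes 0% were down at 6 and at 24 h, and the distal medians were 0.24, 0.40 and 0.36. The causes were not tested. With windows of 100 kb the 18 shares and medians kept their direction and moved little. The log2 ratio of the FOS locus at 72 h ran from -0.81 to -0.28 and that of BATF3 from 0.22 to 0.71, so neither changed sign, whereas without scaling those of FOSB (0.09) and JUND (0.03) did. Locus sums without the gene start region and the joining of genes that share regions to 1 locus (target genes 0.43 at 24 h and 0.56 at 72 h) were added after seeing the data. Depth is unknown, and every condition is 1 list, so a region near the authors' minimum AUC of 200 can be gained or lost by a small difference.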
